A study of Homo sapiens with 5 samples.

Results

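The 492 SMA4 peaks described here were chosen by position alone: they are those of the MOLT-4 SMA4 list, on chromosomes 1 to 22 and X, that contained no base of any RUNX1 or H3K4me3 peak. They made up 33.4% of the 1475 SMA4 peaks on these chromosomes. The other 983 SMA4 peaks comprised 662 that met RUNX1 alone, 310 that met both lists and 11 that met H3K4me3 alone. MOLT-4 is an established human line of T cell acute lymphoblastic leukaemia, here grown in RPMI-1640 medium with 10% FBS and with no treatment compared. Each of the 3 targets was profiled in 1 CUT&RUN library, in which an antibody recruits micrococcal nuclease, fused to protein A/G, to its target on chromatin and the DNA it cuts free is sequenced. The lists held 36736 RUNX1 and 13181 H3K4me3 peaks. Another 2 libraries had an IgG antibody, and no control peaks from them were used here. The label SMA4 is used as given, since no label spells out the protein. The identity of the cells could not be checked against marker genes, because the lists give positions only.

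RUNX1 is a DNA-binding protein of the runt family that controls blood and T cell genes and often acts at enhancers, DNA elements that regulate promoters from a distance. H3K4me3, trimethylation of lysine on histone H3, marks nucleosomes at active and poised promoters. Peak lists of short-read assays also contain positions where reads pile up for reasons of mapping. These are typically found in repeated sequence beside centromeres and telomeres, in collapsed copies of a repeat, and in unusually wide or tightly packed blocks of signal. The list of regions usually excluded for this reason was not used here, so position, packing and width are given as measured features, and their part in any one peak was not tested.

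Membership rests on positions in all 3 lists, so the number of these peaks and their distances above 0 follow from the choice and are given as a description. With 1 library per target no test over samples is possible. Shares have 95% exact binomial (Clopper-Pearson) intervals and medians have 95% order-statistic intervals. Both cover counting error only and take neighbouring peaks as independent, which they are not. The SMA4 list also came from another batch folder and peak-calling pipeline than the RUNX1 and H3K4me3 lists, per the file headers, so antibody, batch and pipeline cannot be told apart. Neither read depth nor peak height is known for any peak.

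Most of the 492 peaks lay more than 10 kb from both other lists, and a minority bordered a RUNX1 peak. The median distance to the nearest RUNX1 peak was 50.6 kb (95% interval 38.9 to 62.6 kb, quartiles 9.63 and 209 kb). To the nearest H3K4me3 peak it was 270 kb (95% interval 225 to 316 kb, quartiles 80.5 and 641 kb). RUNX1 was the nearer list for 421 of them (85.6%, 95% interval 82.1 to 88.6%) and H3K4me3 for 71, and the RUNX1 list is the longer of the 2. Their stretches of sequence free of both lists had a median length of 338 kb, and 125 of the peaks lay in stretches of at least 1 Mb.

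By distance to the nearest peak of either list, 40 were under 1 kb away (8.13%), 88 between 1 and 10 kb, 186 between 10 and 100 kb, 161 between 100 kb and 1 Mb, and 17 over 1 Mb (3.46%). The amount of sequence at each distance also differs. Per Mb of sequence at that distance, centromere gaps left out, peak midpoints numbered 0.567 under 1 kb, 0.228 between 1 and 10 kb, 0.155 between 10 and 100 kb, 0.154 between 100 kb and 1 Mb, and 0.106 over 1 Mb. The density was thus highest beside the other lists and level between 10 kb and 1 Mb. Sequence before the first and after the last RUNX1 or H3K4me3 peak of a chromosome was also left out, and with it 4 members. Unsequenced bases other than the centromere gaps were not removed from the rest, which can lower these densities.

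**Figure D1:**
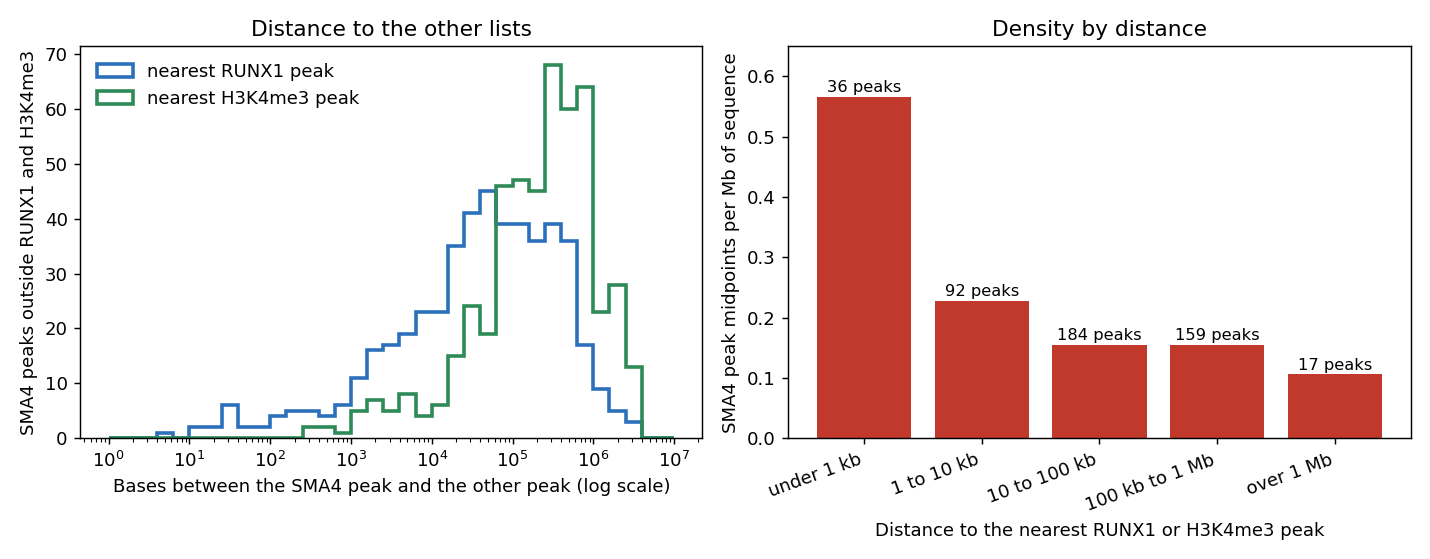
Left, the number of SMA4 peaks outside RUNX1 and H3K4me3 by bases to the nearest RUNX1 or H3K4me3 peak (log scale, 492 peaks); right, their midpoints per Mb of sequence in 5 classes of distance to the nearest peak of either list, with the number of midpoints above each bar. The right panel leaves out 4 members that lie before the first or after the last RUNX1 or H3K4me3 peak of their chromosome. Distances to RUNX1 (median 50.6 kb) lie left of those to H3K4me3 (median 270 kb), and the density is highest under 1 kb, at 0.567 per Mb.

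At the threshold of the choice, membership turned on a few bases. The member nearest to another peak lay on chromosome 2 from 133058277 to 133058427, with 6 bases between it and a RUNX1 peak. The next were on chromosome 3 from 69418894 to 69419094 (10 bases from RUNX1), chromosome 7 from 30518922 to 30519251 (14 bases), chromosome 4 from 143622126 to 143622300 (19 bases) and chromosome 9 from 68799587 to 68799846 (25 bases). Just on the other side, an SMA4 peak on chromosome 18 from 3716406 to 3716718 shared 6 bases with RUNX1, and one on chromosome 2 from 211053570 to 211053722 shared 7. The next 3 shared 9, 10 and 19 bases.

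Some of the peaks nearest to RUNX1 lay inside its regions. RUNX1 peaks were joined into regions at the default distance of ROSE, a method for grouping enhancers, which is between 12 and 13 kb. After joining, 29 of the 492 SMA4 peaks lay between the RUNX1 peaks of 1 region (5.89%, 95% interval 3.98 to 8.36%). A further 101 lay within that distance of a RUNX1 region or single RUNX1 peak, and 362 (73.6%, 95% interval 69.4 to 77.4%) lay farther off. Likewise, 46 peaks (9.35%) had an SMA4 peak of the overlapping kind in their own region of joined SMA4 peaks. This was so for 19 of the 40 peaks under 1 kb and for 24 of the 88 between 1 and 10 kb. Beyond the joining distance it can hardly occur, since the neighbour itself sits on RUNX1 or H3K4me3.

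The remote end of the class held many peaks, but much of the sequence was as remote. Sequence 100 kb to 1 Mb from either list came to 1030 Mb, and over 1 Mb to 161 Mb. Nearer sequence came to 63.5 Mb under 1 kb, 403 Mb between 1 and 10 kb, and 1190 Mb between 10 and 100 kb. Per Mb, members were fewer beyond 100 kb than under 10 kb, as given above. Neither RUNX1 nor H3K4me3 had a peak within 100 kb of 178 of the 492 peaks (36.2%, 95% interval 31.9 to 40.6%), beside 12.1% of all SMA4 peaks, a value the choice itself fixes. For 122 of them no other SMA4 peak lay within 100 kb either (24.8% of the class). Their surroundings held fewer RUNX1 peaks than those of the other SMA4 peaks, and no genome-wide value was computed. Within 100 kb on each side the 492 peaks had a median of 1 RUNX1 peak (quartiles 0 and 4), against 6 (quartiles 3 and 10) for the other 983 SMA4 peaks, of which nearly all contribute at least the peak they overlap. For H3K4me3 the median was 0 for the class and 1 for the other SMA4 peaks. Among SMA4 peaks on RUNX1 alone, which also avoid the promoter mark, the nearest H3K4me3 peak was a median of 95.8 kb away (95% interval 79.8 to 114 kb), a shorter distance than the 270 kb of the class.

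The farthest member lay on chromosome 5 from 27573729 to 27573904, 3.94 Mb from the nearest RUNX1 peak. The next lay on chromosome X from 88812236 to 88812610, 3.51 Mb from RUNX1. The third was again on chromosome 5, from 28217121 to 28217522, 3.30 Mb from RUNX1, and like the first lay in that chromosome's longest stretch without RUNX1 or H3K4me3. Peaks on chromosome X from 27791963 to 27792109 (2.51 Mb) and on chromosome 6 from 67957983 to 67958328 (2.38 Mb) came after them. They were 147 to 402 bp wide, within the usual range of the list, and each stood alone.

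The SMA4 peaks outside both lists were narrow, like the rest of the SMA4 list. Their median width was 210 bp (95% interval 202 to 220 bp, quartiles 168 and 297 bp), against 224 bp (95% interval 218 to 234 bp, quartiles 178 and 329 bp) for the other 983, and these intervals overlap. In all they covered 127 kb. Up to 200 bp wide were 217 of the 492 (44.1%, 95% interval 39.7 to 48.6%) and 385 of the other 983 (39.2%, 95% interval 36.1 to 42.3%). The narrowest, at 141 bp, was also the minimum of the list, reached by 7 members. A wide peak meets other peaks more readily, so width is not independent of the choice. Width followed no steady course with distance within the class. The median was 197 bp under 1 kb, 217 bp between 1 and 10 kb, 202 bp between 10 and 100 kb, 219 bp between 100 kb and 1 Mb, and 247 bp for the 17 peaks over 1 Mb.

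**Figure D2:**
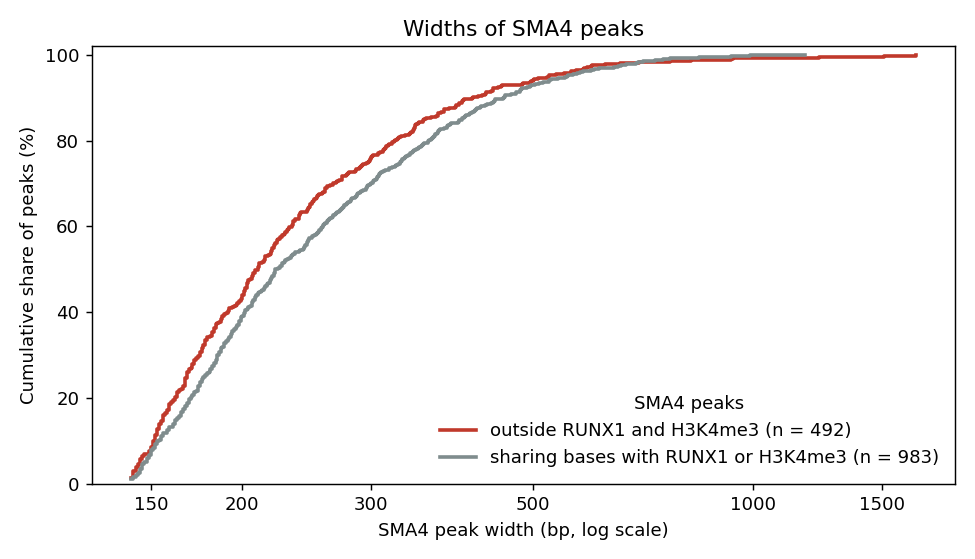
Cumulative share of SMA4 peaks (%) by width (bp, log scale) for the 492 peaks outside RUNX1 and H3K4me3 and the other 983. The first curve runs slightly to the left, with a median of 210 bp against 224 bp for the other peaks, and it alone reaches beyond 1200 bp.

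The 3 widest members bordered no peak of the other lists. Wider than 500 bp were 29 members (5.89%, 95% interval 3.98 to 8.36%) and 68 of the other 983 (6.92%, 95% interval 5.41 to 8.69%), beside 6.58% of the whole SMA4 list. At least 1000 bp wide were 3 of the 492 (0.610%), against 1 of the other 983 (0.102%), beside 0.271% of the whole SMA4 list. The widest, on chromosome 5 from 120360068 to 120361737, spanned 1670 bp and lay 566 kb from RUNX1. The second, on chromosome 3 from 162437148 to 162438657 (1510 bp), lay 384 kb from H3K4me3 and 455 kb from RUNX1. The third began 10.2 kb from the first base of chromosome 5, from 10172 to 11399 (1228 bp), 80.4 kb from H3K4me3. The fourth, on chromosome 12 from 93987845 to 93988829 (985 bp), was unlike these in being 2.23 kb from RUNX1 and 2.45 kb from H3K4me3. The remaining 6 of the 10 widest lay on chromosomes 1 (937 and 931 bp), 3 (821 and 768 bp), 10 (698 bp) and 14 (657 bp), between 4.15 and 459 kb from RUNX1.

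Most members stood alone, and the groups that did form were small. Joining members at the same distance gave 437 groups, of which 398 were single peaks, 29 held 2, 4 held 3 and 6 held 4. The 39 groups of at least 2 held 94 members (19.1%, 95% interval 15.7 to 22.9%), against 185 of the other 983 SMA4 peaks grouped among themselves (18.8%, 95% interval 16.4 to 21.4%). A list with more peaks joins more of them by density alone. With SMA4 peaks of any kind as partners, the shares were 24.4% of members and 21.3% of the others, beside 22.3% of the whole list. Among the others the share was 26.4% on RUNX1 alone and 10.3% on both lists. The median distance to the next SMA4 peak was 175 kb for members (95% interval 122 to 226 kb) and 192 kb for the others (95% interval 157 to 245 kb).

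Within groups the peaks were packed closely. Of the 55 gaps between neighbouring members of a group, 20 were at most 500 bp, 10 were above that and up to 1 kb, 5 were above that and up to 2 kb, and 20 were longer. The smallest gap was 155 bp. Another SMA4 peak lay within 2 kb of 82 members (16.7%, 95% interval 13.5 to 20.3%), beside 13.8% of the whole list. The same held for 121 of the other peaks (12.3%, 95% interval 10.3 to 14.5%). Among these others it was 14.5% on RUNX1 alone (95% interval 11.9 to 17.4%) and 7.42% on both lists. Groups occurred at all distances, and held 8 of the 40 members under 1 kb from another list, 15 of 88 between 1 and 10 kb, 35 of 186 between 10 and 100 kb, 33 of 161 between 100 kb and 1 Mb, and 3 of 17 over 1 Mb.

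The 10 groups with the most members were of several kinds. The group on chromosome 5 from 120355656 to 120362887 held 4 peaks, the widest member among them, in 7.23 kb and lay 562 kb from RUNX1. The group on chromosome 1 from 91023185 to 91028932 held 4 peaks of 188 to 937 bp, 77.0 kb from RUNX1 and 458 kb from H3K4me3. Remote groups of 3 lay on chromosome 4 from 175846763 to 175850491 (484 kb from RUNX1) and on chromosome 7 from 114648736 to 114650953 (1134 kb). In none of these 4 did an SMA4 peak of the overlapping kind lie nearby.

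Another 4 groups were placed beside RUNX1. On chromosome 4 from 143618495 to 143625321, 4 members lay on both sides of an SMA4 peak that shared bases with RUNX1, the closest 19 bases from RUNX1. On chromosome 3 from 151914612 to 151919005, 4 members lay 0.362 kb or more from RUNX1 and 1.01 kb or more from H3K4me3, with 3 overlapping SMA4 peaks nearby. On chromosome 3 from 35674786 to 35691771, 4 members lay among or beside RUNX1 peaks, with 9 overlapping SMA4 peaks within the joining distance. The fourth, on chromosome 7 from 115786207 to 115800565, began 0.354 kb from RUNX1. The last of the 10 were groups of 3 on chromosome 12 from 94133968 to 94136030, 29.8 kb from RUNX1, and on chromosome 14 from 106804962 to 106815476, 13.6 kb from RUNX1. Of all 39 groups, 16 had neither RUNX1 nor H3K4me3 within 100 kb and 9 had one within 10 kb.

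**Figure D3:**
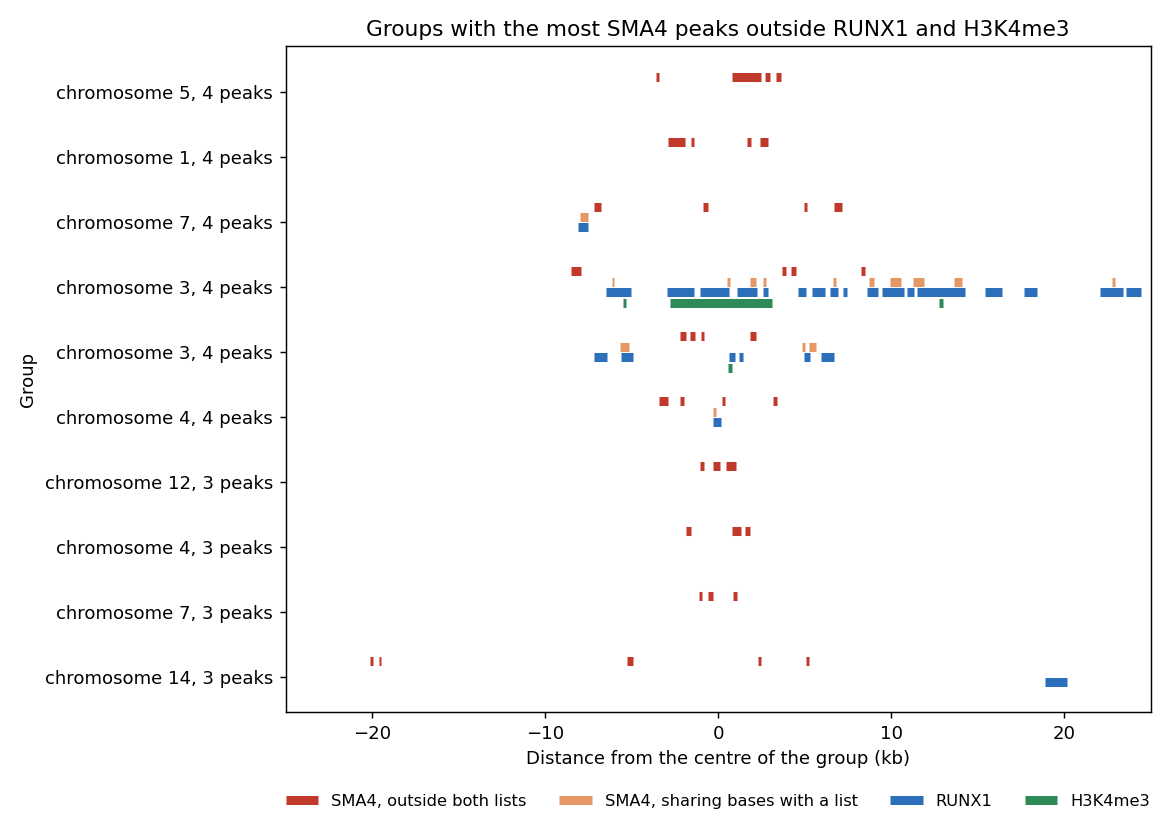
Peaks of the 3 lists within 25 kb of the centre of each of the 10 groups with the most SMA4 peaks outside RUNX1 and H3K4me3 (distance in kb; 1 line per group). Some groups have no peak of another list in view, whereas in the groups on chromosome 3 the members lie among or beside RUNX1 and H3K4me3 peaks.

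Every chromosome used held members, from 3 on chromosome 19 to 51 each on chromosomes 1 and 2. Chromosomes 1, 2, 3 and 5 together held 196 of them (39.8%), against 366 of the other SMA4 peaks (37.2%). Relative to length, members were densest on chromosomes 5 (0.266 per Mb), 18 (0.256 per Mb) and 21 (0.250 per Mb), and sparsest on chromosomes 19 (0.0508 per Mb) and X (0.0517 per Mb). The share of a chromosome's SMA4 peaks that lay outside both lists ranged from 17.4% on chromosome 20 (4 of 23, 95% interval 4.95 to 38.8%) to 52.2% on chromosome 21 (12 of 23, 95% interval 30.6 to 73.2%). The intervals of all 23 chromosomes included the overall 33.4%. Those of chromosomes with few SMA4 peaks were wide, so an even share across chromosomes is not shown. The interval of a pooled set of chromosomes, given below, left out the overall 33.4%.

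The next lowest shares were 18.8% on chromosome 19, 20.8% on chromosome 17, 21.7% on chromosome 16, 22.8% on chromosome 10 and 24.2% each on chromosomes 15 and X. The next highest were 47.1% on chromosome 11, 43.5% on chromosome 18 and 40.7% on chromosome 5. The chromosomes with the most RUNX1 peaks per Mb, 16, 17, 19, 20 and 22, together had a share of 20.8% (22 of 106). Its exact interval, 13.5 to 29.7%, leaves out the overall share. Among them chromosome 19 had 26.8 RUNX1 peaks per Mb. A low share also occurred on chromosome X, with 5.84 per Mb, but its interval was wide (11.1 to 42.3%). Chromosomes 1 and 16 each had 14.8 RUNX1 peaks per Mb and shares of 30.2% and 21.7%. Whether the share follows RUNX1 density was not tested.

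**Figure D4:**
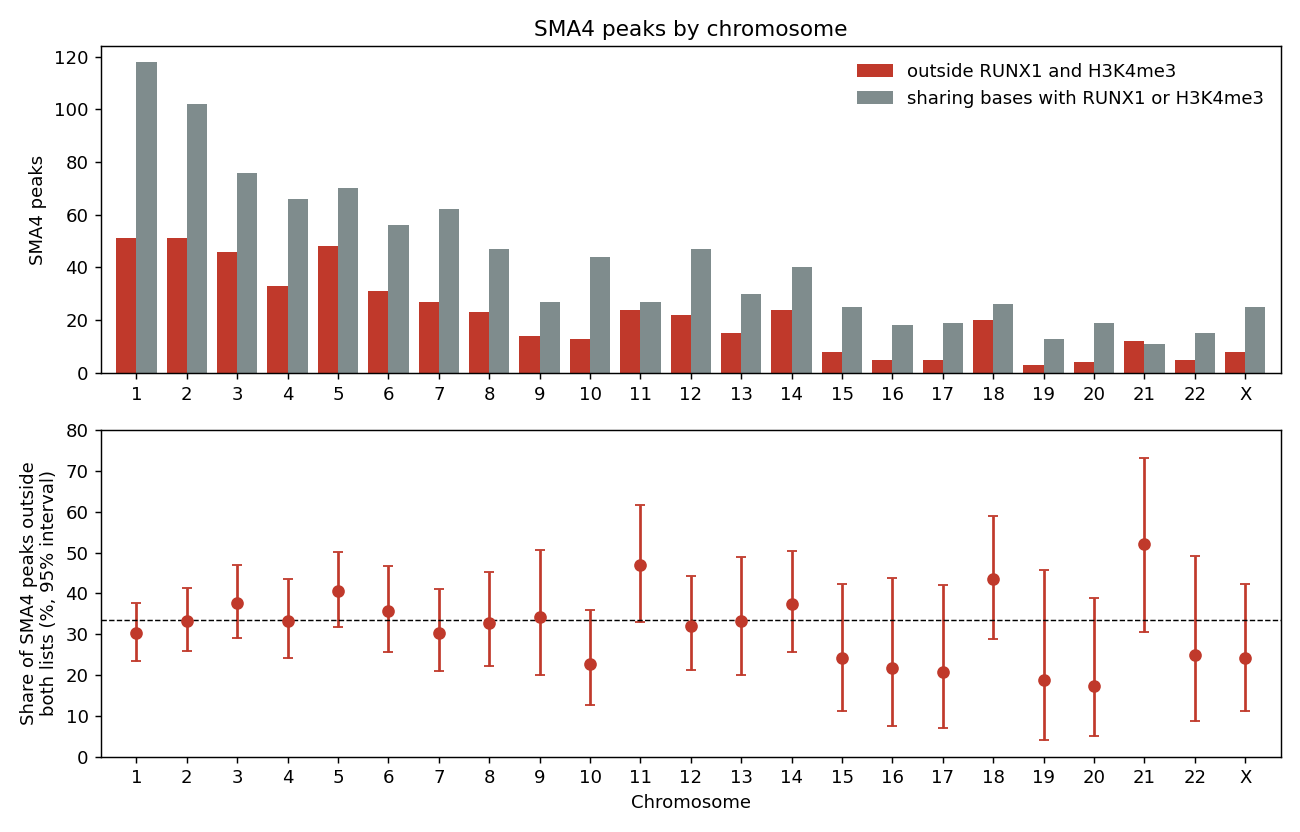
Top, SMA4 peaks per chromosome outside RUNX1 and H3K4me3 (red) and sharing bases with either (grey); bottom, the share outside both lists (%) with its 95% exact interval, the dashed line marking the overall 33.4%. All 23 intervals include the dashed line, but those of chromosomes with few SMA4 peaks are wide. The shares run from 17.4% on chromosome 20 to 52.2% on chromosome 21.

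Chromosome ends held few members. Within 1 Mb of an end were 11 of the 492 (2.24%, 95% interval 1.12 to 3.97%), against 17 of the other 983 (1.73%, 95% interval 1.01 to 2.75%), beside 1.9% of all SMA4 peaks. Of these 11, 7 came from a single stretch of 161 kb on chromosome 14 from 106654584 to 106815476, so the count rests largely on that stretch, and the other 4 lay on chromosomes 3, 4, 5 and 9. Within 5 Mb were 28 members (5.69%, 95% interval 3.81 to 8.12%) and 49 other SMA4 peaks (4.98%, 95% interval 3.71 to 6.54%), whereas RUNX1 had 12.9% and H3K4me3 13.5% of its peaks there.

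The far end of a chromosome was taken as the highest peak end in the lists. On chromosome 3 that was itself a member, from 197827031 to 197827265, which is 195 kb from the known hg19 end. Only the wide peak at the start of chromosome 5 lay within 100 kb of an end by both measures. The next nearest were on chromosome 4 from 190824098 to 190824269 (210 kb from the highest peak end, 37.3 kb from RUNX1) and on chromosome 9 from 237751 to 237917 (238 kb from the first base).

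Beside centromeres the share of members exceeded that of the other SMA4 peaks. Around the hg19 centromere gaps, runs of unknown bases of 3 Mb each, 16 of the 492 lay within 1 Mb (3.25%, 95% interval 1.87 to 5.23%), against 7 of the other 983 (0.712%, 95% interval 0.287 to 1.46%), beside 1.56% of all SMA4 peaks. The intervals do not overlap, but no test was made. RUNX1 had 0.449% and H3K4me3 0.645% of their peaks there. Members are chosen by the absence of these peaks, so the difference is not independent of the choice. Its size apart from the choice was not tested. Within 5 Mb the shares were 8.54% of members (42 peaks, 95% interval 6.22 to 11.4%) and 6.0% of the others (59 peaks, 95% interval 4.60 to 7.67%), beside 6.85% of all SMA4 peaks.

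These 16 peaks were spread over 11 chromosomes, were 152 to 401 bp wide with a median of 246 bp, and 4 of them stood in groups. The nearest to a gap was on chromosome 19 from 27732003 to 27732330, at 50.2 kb. Next came peaks on chromosome 11 from 51580447 to 51580599 (63.6 kb), chromosome 20 from 26292740 to 26293048 (76.5 kb), chromosome 3 from 90345589 to 90345857 (159 kb) and chromosome 1 from 121355069 to 121355222 (180 kb). On chromosome 11 the nearest RUNX1 peak was 1.77 Mb away, but on chromosome 1 it was 17.7 kb away. Of the 16, 7 had RUNX1 within 100 kb.

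A second measure, which uses the lists alone, was the longest stretch of each chromosome without RUNX1 or H3K4me3. It contained the centromere gap on 15 of 23 chromosomes and fell elsewhere on the other 8. Inside these stretches or within 1 Mb of them were 20 members (4.07%, 95% interval 2.50 to 6.21%) and 17 other SMA4 peaks (1.73%, 95% interval 1.01 to 2.75%), beside 2.51% of all SMA4 peaks. Inside lay 13 of the members, where an overlapping SMA4 peak cannot lie by the way the stretches and the members were chosen, so nothing is read from this difference. Among them are the remote peaks named above on chromosomes 5 and 6 and the one on chromosome X from 88812236. From the centromere gap they lie 18.8 and 18.2 Mb (chromosome 5), 6.13 Mb (chromosome 6) and 27.2 Mb (chromosome X) away.

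**Figure D5:**
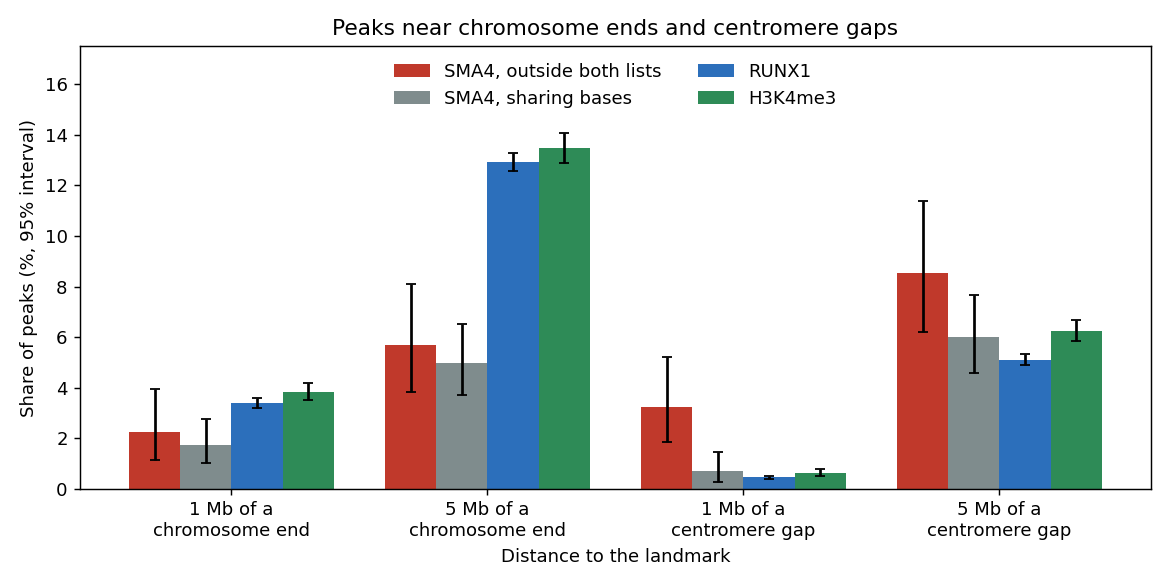
Share of peaks (%, bars with 95% exact intervals) within 1 or 5 Mb of a chromosome end or of an hg19 centromere gap, for the 492 SMA4 peaks outside both lists, the other 983 SMA4 peaks, RUNX1 and H3K4me3. The interval of the first bar lies above that of the other SMA4 peaks only within 1 Mb of a centromere gap (3.25% against 0.712%). That difference is not independent of the choice of members.

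Position, packing and width were also counted together. The features were a position within 100 kb of a chromosome end (2 members, beside 0.475% of all SMA4 peaks), a position within 1 Mb of an hg19 centromere gap (16), a run of at least 3 members no more than 2 kb apart (12) and a width of at least 1000 bp (3). Of the 2 members at ends, the one on chromosome 3 is itself the highest peak end there, 195 kb from the hg19 end. It enters the counts below through this feature only. Runs held 2.44% of members and 29 of the other SMA4 peaks (2.95%), beside 3.86% of all SMA4 peaks when runs may mix both kinds. At least 1 of the 4 features was found in 31 of the 492 (6.30%, 95% interval 4.32 to 8.82%), against 42 of the other 983 (4.27%, 95% interval 3.10 to 5.73%), and these intervals overlap. The share of all SMA4 peaks was 6.03%, but there runs may mix both kinds. It is therefore not counted in the same way as the shares of the 2 kinds. With the longest stretches in place of the gaps, 35 members had a feature (7.11%, 95% interval 5.0 to 9.75%), against 52 of the others (5.29%, 95% interval 3.98 to 6.88%), beside 6.98% of all SMA4 peaks, again with mixed runs. Neither comparison is independent of the choice of members. In the first, nearness to a gap was found in 16 members and 7 of the others, a difference that depends on the choice. The second is partly set by the choice, and the stretches include sequence far from any centromere. By either count, 2 members had more than 1 feature. One was the widest peak, on chromosome 5 from 120360068, which is wide and part of a run. The other was the peak at the start of chromosome 5 from 10172.

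The 12 members in such runs lay in 4 places, on chromosome 3 from 151914612, chromosome 5 from 120360068, chromosome 7 from 114648736 and chromosome 12 from 94133968. The run on chromosome 3 is among RUNX1 and H3K4me3 peaks, whereas those on chromosomes 5 and 7 are over 500 kb from either list. By the count with gaps, 461 members had none of the 4 features. These features do not decide whether a peak is an artefact, and a peak without them may still be one.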

How the data were processed

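The authors deposited 1 peak list for each of the 3 targets, with chromosome, start, end and a running name, and no height, p-value or read count. Per the file headers, RUNX1 and H3K4me3 peaks came from MACS2 and SMA4 peaks from cutruntools at a q threshold of 0.01. Per the submitters' processing notes, the tools were MACS2 and SEACR and the genome was hg19. The aligner is not given in the sources used here. Coordinates are hg19, written 1-based. No hg19 sequence or annotation was used, so peaks carry no gene names or sequences. Members, named peaks and features were chosen with earlier results of these data known. Peaks named were the 10 widest members, the 10 groups with the most members, and 5 each nearest to ends or centromeres, farthest from the other lists and on either side of the overlap threshold.

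Overlap meant at least 1 shared base. Distances count the bases between peak edges. On chromosomes 13, 14, 15, 21 and 22 the first base was not counted as an end. The hg19 chromosome lengths and centromere gaps were entered by hand from general knowledge of the build. As a check, 0 peaks of the 3 lists lay inside the gaps and 0 chromosomes had a peak beyond the stated length. This check would miss a gap misplaced within a longer stretch with few or no peaks, so distances to gaps rest on the entered positions. The planned centromere measure missed the gap on 8 chromosomes, so values by the gap are given first. Distances and grouping were tested on simulated data (Python 3.11.15, numpy 2.4.6, pandas 2.3.3, scipy 1.17.1).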

Additional observations from a re-analysis of the deposited data

How the results depend on the processing

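The number of SMA4 peaks outside both lists was 492 and stayed within 1.5 times that under all alternatives tried. It was 527 when overlaps had to cover 50% of the shorter peak, 532 with overlap at SMA4 midpoints, 452 when a gap of up to 1 kb counted as overlap, 492 with touching peaks merged and 494 with all sequences. The median width and the median distances moved by less than their intervals under each alternative tried. The share near chromosome ends was the same with hg19 lengths. Shares that depend on a chosen window moved with it. The share of members in groups was 25.2% with peaks joined up to 50 kb. The share near chromosome ends was 0.407% within 100 kb and 5.69% within 5 Mb. The share near centromeres was 9.55% within 5 Mb of the longest stretches, and 8.54% within 5 Mb of the hg19 gaps, an alternative chosen after seeing the data, as was the use of the gaps in the features. The share with a feature, counted with the longest stretches, was 4.88% without the criterion on runs. No paired analysis was possible because each target had 1 library. The lists give no depth, so how depth limits these values is unknown.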

Other observations

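Members were also counted over longer distances. When the genome was divided into blocks of 1 Mb, the block with the most separate groups was on chromosome 1 between 192127864 and 192932335, with 7 members in 6 groups and 5 other SMA4 peaks. Next was a block on chromosome 3 between 162316292 and 162716258, with 6 members in 5 groups and no other SMA4 peak, which includes the second widest member. Another on chromosome 3, between 110312357 and 110792609, held 5 members and 1 other SMA4 peak. A block on chromosome 5 between 120129845 and 120628704 held 7 members, the widest among them, and no other SMA4 peak. These blocks were picked for their counts, so the counts are a description, and no expected count was computed.

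The SMA4 list also held 4 peaks on chromosome Y, of which 2 shared no base with the other lists, at 19623585 to 19623962 and 20555724 to 20555875.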
